A study of Homo sapiens with 6 samples.

Results

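The genes described here separate drug-resistant DAUDI cells from the DAUDI library labelled WT and do not separate the DOHH2 libraries in that way. They number 734 of the 12337 genes measured (5.95%), 467 higher and 267 lower in resistant DAUDI. A gene was taken when it differed by at least 1 on the log2(FPKM + 1) scale, in the same direction, in both resistant DAUDI libraries. In addition, each resistant DOHH2 library had to differ from the DOHH2 library labelled WT by under 0.5 or in the opposite direction. FPKM are fragment numbers divided by transcript length and library size, here summed over the isoforms of a gene, and the scale understates the ratio of weakly expressed genes. The members are called DAUDI-only genes below. Since the choice used the differences of both lines, these differences are given as descriptions without a test.

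DAUDI is a Burkitt lymphoma line that carries Epstein-Barr virus, and DOHH2 is a follicular lymphoma line. Each was sequenced as 3 libraries of polyA RNA, namely a library labelled WT, one from cells resistant to idelalisib and one from cells resistant to ibrutinib. Idelalisib inhibits the delta isoform of the lipid kinase PI3K and ibrutinib inhibits the kinase BTK, and both enzymes act below the B cell receptor. The labels give 1 library per group, both lines as obtained from ATCC, and neither the drug dose, the time of exposure nor whether a resistant culture was a clone or a pool. With no replicate library there is no replicate check on any difference, so no p-value or SD is given. In the text, 3 values of a line always follow the order labelled WT, idelalisib-resistant, ibrutinib-resistant.

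The library labelled DAUDI WT stood apart from both resistant DAUDI libraries, and this touches every value below. Across 12186 genes of 300 nt or more, its Pearson r was 0.991 with the DOHH2 library labelled WT, against 0.736 and 0.722 with the resistant DAUDI libraries. The resistant DAUDI libraries had an r of 0.980 with each other. These values are across genes, which are not independent replicates. A DAUDI-only difference therefore cannot be told apart from a difference in which cells the library labelled WT was made from. When the DOHH2 library labelled WT served as the reference for DAUDI as well, 656 genes met the same rule, and 594 of them were among the 734. Since both libraries labelled WT are nearly equal, this swap, here and for the lists below, is no independent check. The DOHH2 library labelled WT also stood apart from its own resistant libraries, with an r of 0.730 and 0.737. Resistant DAUDI and resistant DOHH2 had an r of 0.856 for idelalisib and 0.838 for ibrutinib. The condition on DOHH2 therefore rests on a reference with the same limit. All 10 B cell markers checked, among them MS4A1 and CD22, were at 1 FPKM or more in each of the 6 libraries. Of 20 T and NK cell markers, 3, 2 and 3 reached 1 FPKM in DAUDI. Their summed level was 469.9, 3.76 and 5.998 FPKM, of which the granzyme gene GZMB made up 451 FPKM in the library labelled WT, and 14, 8 and 10 of these markers were listed at 0. Of 18 myeloid markers, 2, 7 and 8 reached 1 FPKM, with summed levels of 33.5, 31.8 and 39.9 FPKM, and their part in the differences was not tested. In bulk RNA, fewer cells of a type and less RNA per cell cannot be told apart.

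As background, type I interferons act through STAT and IRF factors on genes whose promoters hold interferon-stimulated response elements, and the products of these genes sense or restrict viruses. MHC class I and class II molecules carry peptides to T cells, and normal B cells express both. The unfolded protein response enlarges the endoplasmic reticulum through the transcription factor XBP1, which plasma cells need for antibody secretion. The balance of BCL2 family proteins sets the threshold for apoptosis in B cell lymphoma.

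Genes higher in both resistant DAUDI libraries made up 1688 of the 12337 measured genes (13.7%), and 467 of these, 3.79% of all genes, were DAUDI-only. Genes lower in both made up 1631 (13.2%), and 267, or 2.16% of all genes, were DAUDI-only. Taken alone, the idelalisib comparison gave 15.3% of genes higher and 15.8% lower, and the ibrutinib comparison 20.2% and 14.6%. These shares include the members, because the rule used these comparisons. Among the 467 higher genes, the median difference was 1.57 with idelalisib and 1.94 with ibrutinib resistance. Among the 267 lower genes the medians were -1.71 and -1.59. In 460 of the higher genes both resistant DAUDI libraries lay above all 4 other libraries, against 24.3% of all genes, and in 241 of the lower genes they lay below all 4, against 15.8%. These counts are largely fixed by the rule and by the near equality of the libraries labelled WT, and nothing is read from them.

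**Figure D1:**
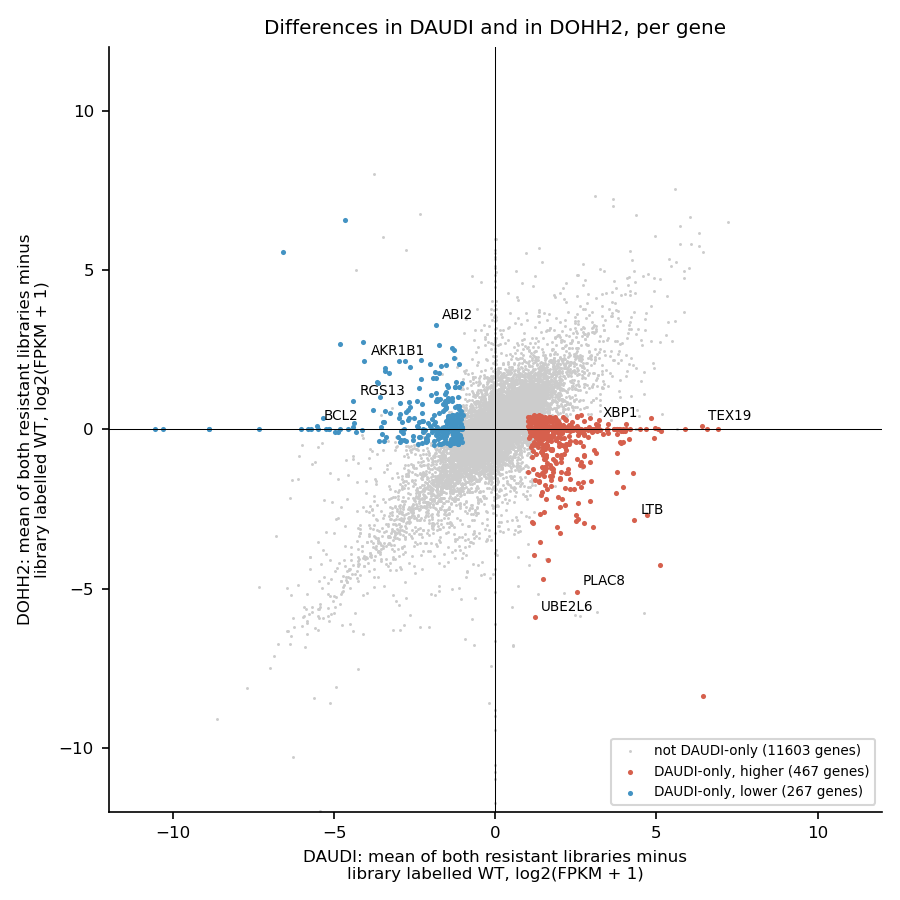
Each point is a gene. The horizontal axis gives the mean difference of the 2 resistant DAUDI libraries from the DAUDI library labelled WT and the vertical axis the same for DOHH2, both as log2(FPKM + 1). The 467 higher (red) and 267 lower (blue) DAUDI-only genes lie along the horizontal line or in the quadrants where the lines differ in opposite directions, as the rule requires, while the other 11603 genes (grey) include those shared by both lines.

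The interferon response was the fixed list with the largest count of DAUDI-only genes. Of 39 measured genes, 17 were DAUDI-only higher (43.6%, against 3.79% of all genes) and 0 were DAUDI-only lower (against 2.16%). The shares of every list below stand beside these 3.79% and 2.16% of all genes. In the whole list 19 genes were higher and 5 lower in both DAUDI comparisons, whatever DOHH2 did. The list's median level on the log2(FPKM + 1) scale was 2.12, 3.44 and 4.21 in DAUDI and 2.49, 0.14 and 0.42 in DOHH2. With the DOHH2 library labelled WT as the reference for DAUDI, 16 of the 39 genes met the rule. The promoters of the leading members are shown first, because several hold the letters of the response element. The letters GAAANNGAAA were searched on both strands of the RefSeq promoter windows of GRCh38.p14, which run from 250 bases before to 50 bases after a gene's start. They are shown in capitals, as TTTCNNTTTC where the match is on the opposite strand, and matches may overlap.
ISG15, chr1:1013369-1013414, plus strand: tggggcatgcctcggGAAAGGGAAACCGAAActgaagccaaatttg
IFIT1, chr10:89392492-89392544, plus strand: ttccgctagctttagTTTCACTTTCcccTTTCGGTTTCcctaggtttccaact
IFIT3, chr10:89327826-89327899, plus strand: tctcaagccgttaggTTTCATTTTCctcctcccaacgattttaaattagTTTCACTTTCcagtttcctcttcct
IFI6, chr1:27672261-27672363, minus strand: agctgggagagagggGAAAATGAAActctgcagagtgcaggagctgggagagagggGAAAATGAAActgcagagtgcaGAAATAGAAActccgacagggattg
IFI44L, chr1:78620269-78620399, plus strand: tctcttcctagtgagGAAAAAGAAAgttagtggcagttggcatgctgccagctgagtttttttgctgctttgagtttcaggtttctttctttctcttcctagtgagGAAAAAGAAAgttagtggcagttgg
The stretches of ISG15, IFIT1, IFIT3 and IFI44L hold 2 matches each and that of IFI6 holds 3. Of the 17 interferon members, 14 had a promoter in the table and 11 of these held a match, against 3.57% of all 35116 windows, of which a gene can have several. Over the measured list, members included, 20 of the 31 genes with a promoter held a match, so the letters are not particular to the members. Of the 12337 measured genes, 9729 had a promoter in the table, and 410 of these held a match (4.21%). Genes without a promoter in the table are not covered by these shares. The motif was chosen with the members known, and a match is a description of the letters.

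Most of the strongly differing interferon members were near 0 in the other 4 libraries. IFI44L, whose product restricts viral replication, was 0.0924, 28.3 and 50.5 FPKM in DAUDI and 0.0745, 0.0349 and 0.0208 FPKM in DOHH2. Its neighbour on chromosome 1, IFI44, was 0.0925, 27.8 and 39.8 FPKM in DAUDI and 0.03797, 0.0382 and 0.0985 FPKM in DOHH2. RSAD2, which encodes the antiviral enzyme viperin, was 0.0084, 9.08 and 17.7 FPKM in DAUDI and a listed 0, 0.0258 and a listed 0 FPKM in DOHH2. For these 3 genes neither resistant DOHH2 library nor either library labelled WT reached 0.5 FPKM, while every resistant DAUDI library exceeded 5 FPKM. CMPK2, a nucleotide kinase gene next to RSAD2, was 0.02702, 10.1 and 21.8 FPKM in DAUDI and listed at 0 in all 3 DOHH2 libraries. The IFIT genes encode proteins that bind foreign RNA and lie side by side on chromosome 10 (hg19). IFIT3 was 0.5002, 18.4 and 27.3 FPKM in DAUDI and 0.3302, a listed 0 and 0.0132 FPKM in DOHH2, and differed by 3.69 and 4.24 log2 units in the DAUDI comparisons. IFIT1 was 0.0861, 3.56 and 5.08 FPKM in DAUDI and 0.156, a listed 0 and 0.0212 FPKM in DOHH2. IFIT2 was 1.92, 10.9 and 14.2 FPKM in DAUDI and 1.57, a listed 0 and a listed 0 FPKM in DOHH2. The resistant DAUDI libraries held the highest 2 values of each IFIT gene.

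Of the other interferon members, ISG15, OAS2 and IFIH1 were expressed in the libraries labelled WT and separated the lines in opposite directions. ISG15, a ubiquitin-like modifier, was 16.2, 106 and 185 FPKM in DAUDI and 19.1, 1.45 and 1.31 FPKM in DOHH2. OAS2, which makes the oligoadenylates that activate RNase L, was 27.7, 102 and 129 FPKM in DAUDI and 36.04, 1.78 and 4.43 FPKM in DOHH2. The RNA sensor gene IFIH1 was 3.63, 13.4 and 23.5 FPKM in DAUDI and 4.39, a listed 0 and a listed 0 FPKM in DOHH2. Each of the 3 genes was highest in resistant DAUDI, intermediate in both libraries labelled WT and lowest in resistant DOHH2. Among the factors that drive the response, IRF1 was 1.32, 9.36 and 16.3 FPKM in DAUDI and 1.99, 2.38 and 1.99 FPKM in DOHH2. IRF7 was 2.75, 9.88 and 16.2 FPKM in DAUDI and 5.396, 2.36 and 2.11 FPKM in DOHH2. Neither resistant DOHH2 library overlapped a resistant DAUDI library for IRF1 or IRF7. The pro-apoptotic interferon gene XAF1 was 0.4905, 5.23 and 14.2 FPKM in DAUDI and 0.433, 0.009 and a listed 0 FPKM in DOHH2. Lower in level were the guanylate-binding protein gene GBP4, 0.0093, 1.77 and 4.63 FPKM in DAUDI and 0.01896, a listed 0 and a listed 0 FPKM in DOHH2, and IFI27, 0.204, 4.24 and 8.38 FPKM in DAUDI and 0.07102, 0.288 and 0.505 FPKM in DOHH2. EPSTI1 was 1.49, 13.3 and 17.5 FPKM in DAUDI and 1.24, a listed 0 and 0.0303 FPKM in DOHH2. UBE2L6, the enzyme gene that conjugates ISG15, is a DAUDI-only gene outside the interferon list. It was 50.6, 102 and 141 FPKM in DAUDI and 59.7, a listed 0 and 0.0574 FPKM in DOHH2. Its idelalisib difference of 1.003 lay close to the threshold.

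The plot by library shows 4 of the lists. In DAUDI all 4 had a higher median in both resistant libraries than in the library labelled WT. In DOHH2 the interferon median was lower in both resistant libraries. The stress median was higher in both resistant DOHH2 libraries as well, at 4.25, 5.09 and 4.92. The MHC class I medians in DOHH2 were 4.55, 4.52 and 4.51, and the class II medians 5.07, 4.98 and 4.96.

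**Figure D2:**
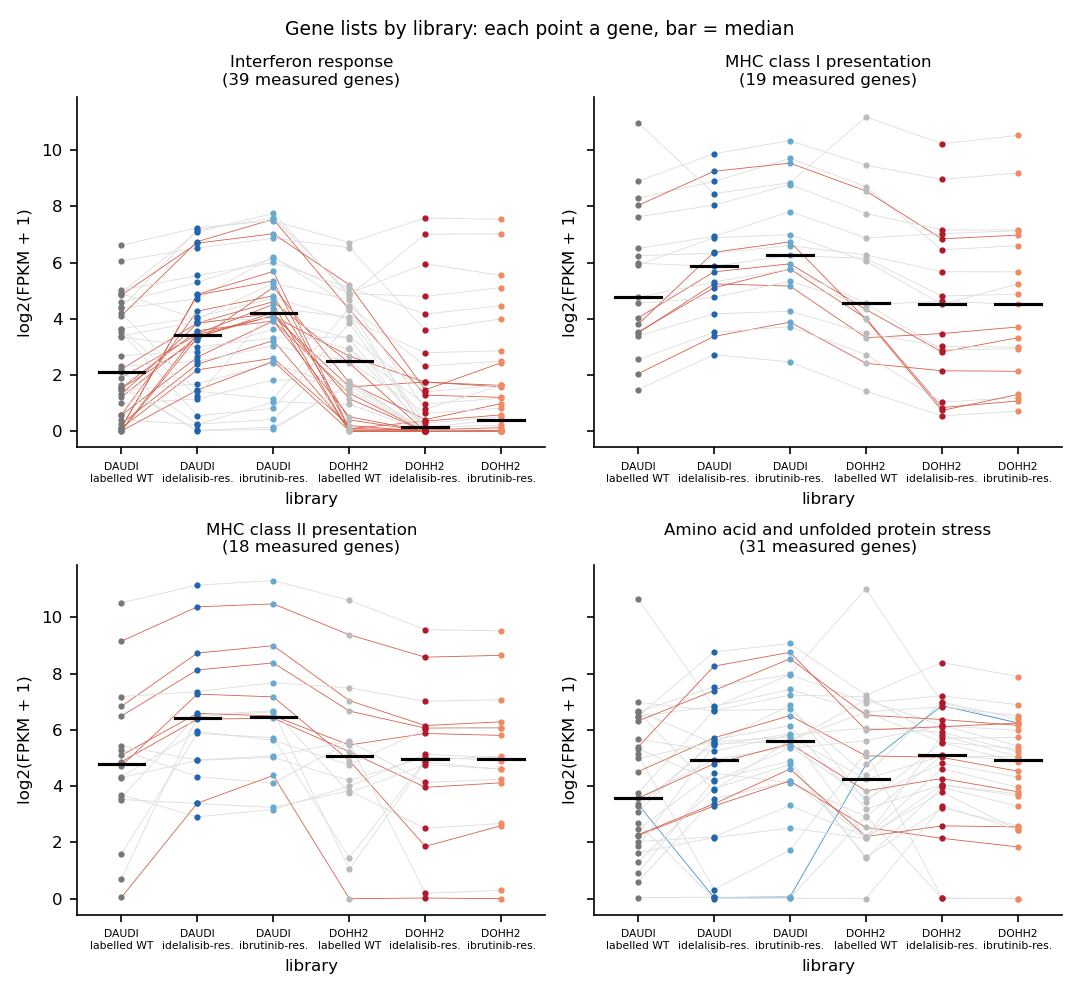
Levels as log2(FPKM + 1) of 4 gene lists in the 6 libraries, 1 library per group. Points are genes, black bars are medians, and lines join the values of a gene, in red for DAUDI-only higher, blue for DAUDI-only lower and grey for other genes. The interferon median moved from 2.12 in the DAUDI library labelled WT to 4.21 in the ibrutinib-resistant DAUDI library, and from 2.49 to 0.42 between the same states of DOHH2.

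Of the 19 measured MHC class I presentation genes, 6 were DAUDI-only higher (31.6%) and 0 DAUDI-only lower. These 6 were all that were higher in both DAUDI comparisons, and 1 gene was lower in both. With the DOHH2 library labelled WT as reference 5 met the rule. Without the idelalisib-resistant DAUDI library, which removes a condition, 13 of the 19 met it. HLA genes are polymorphic and resemble each other, so that reads can be assigned to the wrong copy. HLA-C, a classical class I heavy chain gene, was 261, 606 and 742 FPKM in DAUDI and 373, 114 and 125 FPKM in DOHH2. HLA-F was 10.6, 33.5 and 53.7 FPKM in DAUDI and 15.2, 0.797 and 1.12 FPKM in DOHH2. HLA-G was 3.14, 9.38 and 13.8 FPKM in DAUDI and 4.36, 3.46 and 3.398 FPKM in DOHH2. All 3 heavy chain genes had their 2 highest values in the resistant DAUDI libraries, and HLA-C and HLA-F were lowest in resistant DOHH2. The genes for peptide supply lie together in the class II region of chromosome 6. TAP1, a subunit of the peptide transporter, was 15.4, 49.9 and 61.1 FPKM in DAUDI and 19.2, 6.09 and 9.07 FPKM in DOHH2. TAP2, its partner, was 10.3, 36.9 and 34.9 FPKM in DAUDI and 9.07, 10.1 and 12.1 FPKM in DOHH2, and so did not separate the DOHH2 libraries. The immunoproteasome gene PSMB9 was 12.97, 81.6 and 106 FPKM in DAUDI and 14.8, 0.675 and 1.49 FPKM in DOHH2. For PSMB9 the resistant DAUDI libraries lay 2.56 and 2.93 above their library labelled WT and the resistant DOHH2 libraries 3.24 and 2.67 below theirs. The light chain gene B2M, not a member and chosen after its values were seen, was lower in resistant DAUDI, at 2012, 349.7 and 458 FPKM. Its mean difference was -2.33 in DAUDI and -0.81 in DOHH2. These are RNA levels, and MHC class I protein at the cell surface was not measured.

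MHC class II presentation had 7 DAUDI-only higher genes of 18 measured (38.9%) and 0 DAUDI-only lower. In the whole list 11 were higher and 0 lower in both DAUDI comparisons. With the DOHH2 library labelled WT as reference 6 met the rule. HLA-DRA, the alpha chain of HLA-DR, was 566, 1326 and 1423 FPKM in DAUDI and 665, 383 and 400.4 FPKM in DOHH2. HLA-DRB1 was 88.96, 279 and 332 FPKM in DAUDI and 101, 65.8 and 66.3 FPKM in DOHH2. The isoform with nearly all of the HLA-DRB1 signal in DAUDI made up 99.9996%, 0.00036% and 0.00027% in DOHH2. The DOHH2 values of this gene therefore rest on different isoforms. HLA-DPA1 was 113, 424 and 508 FPKM in DAUDI and 130.5, 70.2 and 77.1 FPKM in DOHH2. All 3 were the highest in resistant DAUDI and the lowest in resistant DOHH2, with the libraries labelled WT in between. The beta chain gene HLA-DPB1 was 28.1, 82.2 and 84.2 FPKM in DAUDI and 36.4, 14.5 and 16.4 FPKM in DOHH2. HLA-DQA1 was 25.3, 153 and 143 FPKM in DAUDI and 29.05, 2.63 and 5.04 FPKM in DOHH2, which was the widest opposite pattern in this list. HLA-DMA, which helps to load peptides, was 33.1, 95.1 and 89.2 FPKM in DAUDI and 43.1, 57.5 and 54.9 FPKM in DOHH2 and differed by under 0.5 in DOHH2. The lysosomal protease gene LGMN was 0.0302, 9.51 and 19.8 FPKM in DAUDI and a listed 0, 0.0156 and a listed 0 FPKM in DOHH2, and was near 0 outside resistant DAUDI.

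Some genes of the unfolded protein response and of secretory cells were DAUDI-only higher. In the list for amino acid and unfolded protein stress, 6 of 31 measured genes were DAUDI-only higher (19.4%) and 1 was DAUDI-only lower (3.23%, against 2.16% of all genes). In both DAUDI comparisons 16 of the 31 were higher and 5 lower, whatever DOHH2 did. The list's median differences were 1.05 and 1.66 in DAUDI and 0.53 and 0.34 in DOHH2, so the list as a whole was higher in both resistant lines. Plasma cell genes had 4 of 18 DAUDI-only higher (22.2%) and 0 DAUDI-only lower. That list went in both directions, with 7 genes higher and 6 lower in both DAUDI comparisons and medians of -0.10 and 0.65. With the DOHH2 library labelled WT as reference the DAUDI-only higher counts were 2 and 3, and with the mean of both libraries labelled WT 1 and 2. XBP1, which directs the unfolded protein response, was 40.8, 307 and 431 FPKM in DAUDI and 62.7, 68.3 and 74.5 FPKM in DOHH2. Almost all of its signal in DAUDI was assigned to the longer isoform (1820 nt), at 40.8, 307 and 429 FPKM. The shorter isoform (1794 nt) carried 0.0031, 0.0014 and 2.52 FPKM. The activity of the factor was not measured. HSPA5, the chaperone BiP and a target of that response, was 78.7, 168 and 369 FPKM in DAUDI and 91.02, 81.6 and 70.4 FPKM in DOHH2. Both promoters hold the letters of the endoplasmic reticulum stress element, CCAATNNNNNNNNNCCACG, shown in capitals (RefSeq, GRCh38.p14, both strands searched).
XBP1, chr22:28800588-28800636, minus strand: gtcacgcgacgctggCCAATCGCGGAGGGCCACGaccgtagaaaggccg
HSPA5, chr9:125241376-125241424, minus strand: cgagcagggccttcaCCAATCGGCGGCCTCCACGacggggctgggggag
Of the 6 higher stress members 5 had a promoter in the table and these 2 held the element. They were the only matches among the 26 genes of the list with a promoter. Over all measured genes, 17 of the 9729 with a promoter held it (0.175%), beside 0.0769% of all 35116 windows.

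Further members encode proteins of the endoplasmic reticulum. DNAJB9, a co-chaperone of HSPA5, was 3.83, 9.35 and 23.4 FPKM in DAUDI and 3.62, 5.01 and 4.86 FPKM in DOHH2. FKBP11, a prolyl isomerase of secretory cells, was 22.1, 108 and 166 FPKM in DAUDI and 19.5, 26.2 and 26.7 FPKM in DOHH2. SSR4, a subunit of the translocon-associated complex, was 73.2, 163 and 254 FPKM in DAUDI and 76.7, 70.5 and 78.2 FPKM in DOHH2. In each of these genes both resistant DAUDI libraries lay above the other 4. The peroxiredoxin gene PRDX4, which helps disulfide bond formation, was 32.8, 67.9 and 93.6 FPKM in DAUDI and 34.8, 23.9 and 25.4 FPKM in DOHH2. WFS1, a reticulum membrane protein gene on chromosome 4, was 0.9204, 4.19 and 10.5 FPKM in DAUDI and 0.983, 1.003 and 0.689 FPKM in DOHH2. SEC61A1, the channel subunit of the translocon, was 40.9, 83.2 and 155 FPKM in DAUDI and 39.8, 41.8 and 35.2 FPKM in DOHH2, with an idelalisib difference just inside the threshold at 1.01. For SSR4, PRDX4 and SEC61A1 no DOHH2 value reached the lower resistant DAUDI value.

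Amino acid genes went in both directions. PSAT1, the second enzyme of serine synthesis, was 21.9, 51.6 and 90.1 FPKM in DAUDI and 32.8, 31.5 and 22.1 FPKM in DOHH2. The cystine transporter gene SLC7A11 was 3.74, 8.81 and 17.2 FPKM in DAUDI and 4.78, 3.42 and 2.58 FPKM in DOHH2. CEBPG, a partner of the factor ATF4, was 10.9, 26.8 and 44.4 FPKM in DAUDI and 13.2, 18.3 and 12.9 FPKM in DOHH2. These 3 were highest in the ibrutinib-resistant DAUDI library. PHGDH, which encodes the first enzyme of the same serine pathway as PSAT1, was 9.24, 0.0298 and 0.0435 FPKM in DAUDI and 26.3, 115 and 74.9 FPKM in DOHH2. It was thus nearly absent from the mRNA of resistant DAUDI and highest in resistant DOHH2. SLC38A2, a transporter of small neutral amino acids, was 31.7, 0.0284 and 0.0623 FPKM in DAUDI and 35.7, 37.5 and 30.6 FPKM in DOHH2. For SLC38A2 both resistant DAUDI libraries lay under 0.1 FPKM and all 4 others above 30 FPKM. The isoleucyl-tRNA synthetase gene IARS was 70.2, 142 and 209 FPKM in DAUDI and 68.6, 91.8 and 75.6 FPKM in DOHH2 with an idelalisib difference of 1.0003, close to the threshold. The mitochondrial arginase gene ARG2 was 0.884, 30.1 and 91.4 FPKM in DAUDI and 0.777, 1.17 and 1.41 FPKM in DOHH2.

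Genes of cell death were led by BCL2. BCL2, the anti-apoptotic gene that follicular lymphoma overexpresses through its translocation, was 59.7, 0.228 and 0.395 FPKM in DAUDI and 51.6, 53.5 and 58.2 FPKM in DOHH2. It differed by -5.63 and -5.44 in the DAUDI comparisons, the lowest values among members of 300 nt or more, and the library labelled DAUDI WT lay at the level of the DOHH2 libraries. The long isoform carried 57.1 FPKM of that library's BCL2 signal and the short one 2.61 FPKM. The pro-apoptotic BCL2 family gene BIK was 0.658, 13.2 and 10.2 FPKM in DAUDI and 3.76, a listed 0 and a listed 0 FPKM in DOHH2. Among 25 measured caspases, death receptors and inhibitors, 5 were DAUDI-only higher (20.0%) and 0 DAUDI-only lower, while in both DAUDI comparisons 8 were higher and 7 lower. The inflammatory caspase genes CASP1 and CASP4 lie close together on chromosome 11. CASP1 was 2.34, 10.7 and 23.3 FPKM in DAUDI and 3.27, 0.1601 and 0.1796 FPKM in DOHH2. CASP4 was 5.05, 29.9 and 39.7 FPKM in DAUDI and 4.62, 0.185 and 0.0815 FPKM in DOHH2. Both were lowest in resistant DOHH2, where no library reached 0.2 FPKM. BIRC3, an inhibitor of apoptosis that NF-kB induces, was 8.06, 28.5 and 24.2 FPKM in DAUDI and 8.19, 1.6002 and 1.39 FPKM in DOHH2. TNFSF10, the death ligand TRAIL, was 1.93, 13.8 and 18.001 FPKM in DAUDI and 2.105, 1.598 and 1.11 FPKM in DOHH2. FAS, a death receptor gene, was 1.52, 5.02 and 4.42 FPKM in DAUDI and 2.39, 1.08 and 1.17 FPKM in DOHH2. FAS lay close to the threshold, with differences of 1.26 and 1.11. The adaptor gene PYCARD, which links sensors to CASP1, went the other way from CASP1 in DAUDI, 5.87, 0.299 and 0.532 FPKM in DAUDI and 7.34, 5.23 and 5.19 FPKM in DOHH2.

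A set of 3 neighbouring genes on the short arm of chromosome 9 were measured in resistant DAUDI and at or near 0 elsewhere. MTAP, a methylthioadenosine phosphorylase gene (chr9:21802635-21865969, hg19), was 0.0059, 6.36 and 6.19 FPKM in DAUDI and listed at 0 in all 3 DOHH2 libraries. CDKN2A, which encodes the inhibitors p16 and p14ARF (chr9:21967751-21994490), was a listed 0, 14.2 and 16.8 FPKM in DAUDI and listed at 0 in all 3 DOHH2 libraries. FLJ35282, a noncoding gene (chr9:22646199-22824212), was a listed 0, 1.97 and 2.13 FPKM in DAUDI and listed at 0 in all 3 DOHH2 libraries. Almost all of the CDKN2A signal, 14.02 and 16.6 FPKM in the resistant DAUDI libraries, was assigned to the p14ARF isoform, while the p16 isoform carried 0.066 and 0.013 FPKM. From MTAP to FLJ35282, all listed genes were at 0 in the 3 DOHH2 libraries and, apart from the 0.0059 FPKM of MTAP, in the library labelled DAUDI WT. KLHL9, a ubiquitin ligase subunit gene on the telomere side of MTAP (chr9:21331018-21335429), was measured in all libraries, at 10.02, 2.83 and 3.46 FPKM in DAUDI and 10.4, 6.25 and 5.74 FPKM in DOHH2. Without counts a listed 0 has no bound, so no ratio is given for these genes. Another cell cycle inhibitor, CDKN1B, was lower, 16.2, 4.23 and 7.56 FPKM in DAUDI and 14.8, 21.1 and 20.3 FPKM in DOHH2, with an ibrutinib difference of -1.002 at the threshold. The phosphatase gene CDKN3 was 18.4, 38.2 and 46.7 FPKM in DAUDI and 16.2, 22.4 and 19.9 FPKM in DOHH2.

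The plot of levels shows these groups together with B cell and other leading members.

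**Figure D3:**
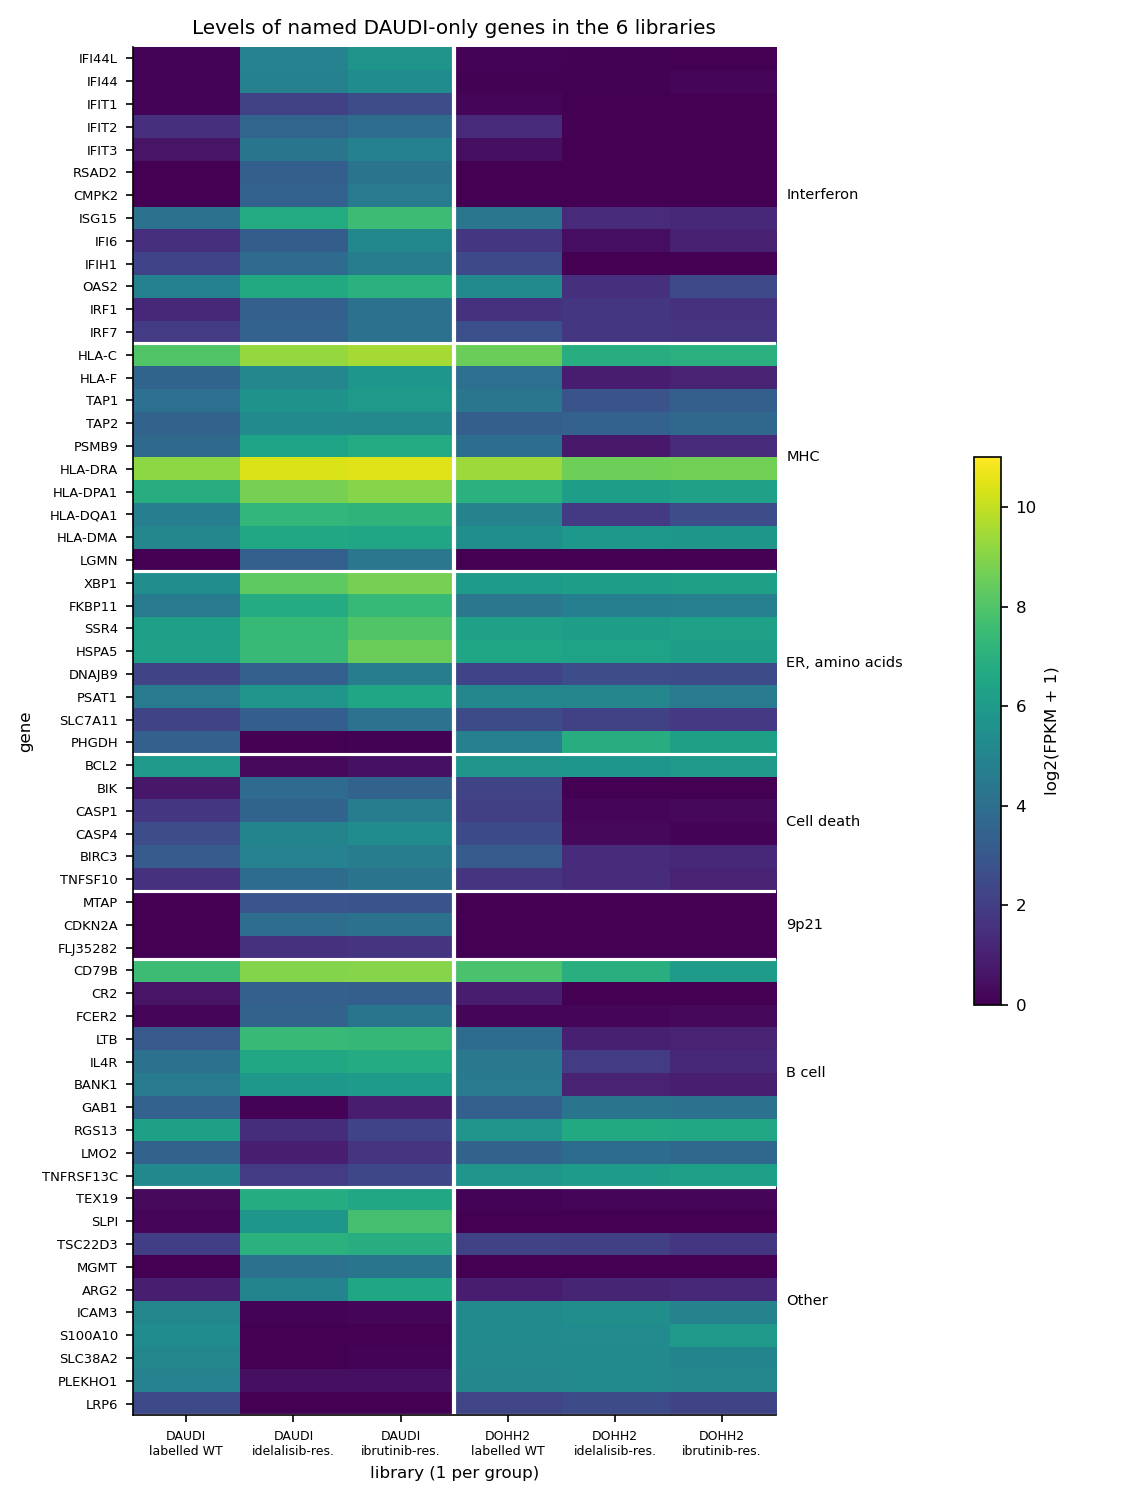
Heat map of log2(FPKM + 1), from 0 (dark) to above 10 (yellow), for named DAUDI-only genes (rows, by group) in the 6 libraries (columns, 1 per group). The 2 resistant DAUDI columns differ from the remaining 4 in most rows: the interferon, MHC and 9p21 rows are brighter there, and BCL2 is darker, at 0.228 and 0.395 FPKM against 51.6 to 59.7 FPKM elsewhere.

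Genes of B cell identity and signalling were divided. Of 22 measured receptor chains and co-receptors, 3 were DAUDI-only higher (13.6%) and 0 DAUDI-only lower, while in both DAUDI comparisons 5 were higher and 6 lower. CD79B, a signalling chain of the B cell receptor, was 185, 490.4 and 514 FPKM in DAUDI and 226, 117 and 64.9 FPKM in DOHH2. The other chain gene, CD79A, missed the rule with an idelalisib difference of 0.996. CR2, the complement receptor through which Epstein-Barr virus enters, was 0.515, 9.34 and 9.002 FPKM in DAUDI and 0.809, a listed 0 and 0.0234 FPKM in DOHH2. LY9, a SLAM family receptor gene, was 1.58, 13.8 and 17.2 FPKM in DAUDI and 2.48, a listed 0 and a listed 0 FPKM in DOHH2. Among 24 measured genes that Epstein-Barr virus is known to induce, 4 were DAUDI-only higher (16.7%), namely CR2, FCER2, BIRC3 and SH2D1A. These were also the only 4 of the 24 that were higher in both DAUDI comparisons, while 11 were lower in both, and the list's median differences were -0.69 and -0.74. FCER2, the low-affinity IgE receptor CD23, was 0.1399, 10.3 and 18.1 FPKM in DAUDI and 0.144, 0.137 and 0.1704 FPKM in DOHH2. SH2D1A, a SLAM adaptor gene, was 0.0242, 12.6 and 8.32 FPKM in DAUDI and 0.0247, a listed 0 and a listed 0 FPKM in DOHH2. CR2, FCER2 and SH2D1A were under 1 FPKM in both libraries labelled WT and in resistant DOHH2.

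Below the receptor, members of B cell receptor signalling included 1 higher and 2 lower genes of 31 measured (3.23% and 6.45%), near or above the shares over all genes. In both DAUDI comparisons 8 were higher and 11 lower. The adaptor gene BANK1 was 22.8, 57.9 and 64.98 FPKM in DAUDI and 22.2, 1.096 and 0.919 FPKM in DOHH2. RASGRP3, an activator of RAS, was 75.4, 28.4 and 31.2 FPKM in DAUDI and 75.7, 56.6 and 54.2 FPKM in DOHH2. GAB1, an adaptor of PI3K, was 9.86, 0.08004 and 0.833 FPKM in DAUDI and 9.25, 18.001 and 16.4 FPKM in DOHH2. BANK1 was thus highest and GAB1 lowest in resistant DAUDI. In the PI3K list 1 of 32 genes was DAUDI-only higher (3.12%, near the 3.79% of all genes) and 0 lower. It was SGK3, a kinase gene at 3.17 and 5.61 FPKM in the resistant DAUDI libraries and under 0.4 FPKM in the other 4. The genes for the drug targets were not members. BTK was 68.4, 112 and 115 FPKM in DAUDI and PIK3CD was 36.7, 13.2 and 15.3 FPKM.

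Germinal centre genes were mostly higher in resistant DAUDI, but most of these were not DAUDI-only. In both DAUDI comparisons 17 of 29 measured genes were higher and 3 lower, with median differences of 1.43 and 1.70. In DOHH2 the list's medians were 2.33 and 2.29. Of the 29, 3 were DAUDI-only lower (10.3%) and 1 higher (3.45%). RGS13, a brake on chemokine receptors, was 75.5, 1.75 and 3.66 FPKM in DAUDI and 52.2, 101 and 94.7 FPKM in DOHH2. LMO2, a transcriptional bridging factor, was 10.5, 0.878 and 2.13 FPKM in DAUDI and 10.3, 13.6 and 11.7 FPKM in DOHH2. MEF2C, a factor downstream of the receptor, was 24.5, 11.3 and 10.7 FPKM in DAUDI and 17.05, 24.8 and 23.995 FPKM in DOHH2. All 3 were within 1 log2 unit over the DOHH2 libraries. The higher member was A4GALT, which makes the CD77 antigen of Burkitt lymphoma, 0.0445, 7.58 and 9.06 FPKM in DAUDI and 0.0304, a listed 0 and a listed 0 FPKM in DOHH2. PAX5, which maintains B cell identity, was 74.2, 28.1 and 33.1 FPKM in DAUDI and 54.9, 46.5 and 39.7 FPKM in DOHH2. LEF1, a Wnt effector gene, was 1.74, 0.143 and 0.113 FPKM in DAUDI and 2.44, 20.2 and 16.4 FPKM in DOHH2. TNFRSF13C, the BAFF receptor gene, was 34.3, 2.87 and 4.22 FPKM in DAUDI and 52.6, 64.6 and 72.2 FPKM in DOHH2. PAX5 was at 28.1 FPKM or more in each library, whereas the resistant lines did not overlap for LEF1 or TNFRSF13C.

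Cytokine genes held 3 higher and 1 lower members of 53 measured (5.66% and 1.89%), near the 3.79% and 2.16% of all genes. In both DAUDI comparisons 6 of the 53 were higher and 18 lower. LTB, the lymphotoxin beta gene beside the class III genes of chromosome 6, was 7.35, 173 and 158 FPKM in DAUDI and 13.8, 0.982 and 1.12 FPKM in DOHH2. Its neighbours LST1 and NCR3 were also DAUDI-only higher. LST1 was a listed 0, 8.82 and 12.1 FPKM in DAUDI and 0.241, 0.488 and 0.324 FPKM in DOHH2. IL4R, a receptor chain for interleukin-4, was 16.2, 96.8 and 106 FPKM in DAUDI and 20.3, 2.76 and 1.42 FPKM in DOHH2. LTB and IL4R were highest in resistant DAUDI and lowest in resistant DOHH2, with a gap between the groups. IL27RA went the other way, 2.23, 0.175 and 0.235 FPKM in DAUDI and 2.46, 6.26 and 4.85 FPKM in DOHH2.

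Adhesion and cytoskeleton genes were the list with the most lower members, 5 of 52 (9.62%), beside 3 higher (5.77%). In both DAUDI comparisons 28 of the 52 were lower and 7 higher. ICAM3, an adhesion molecule of leukocytes, was 31.9, 0.0858 and 0.126 FPKM in DAUDI and 37.6, 42.04 and 29.4 FPKM in DOHH2. S100A10, a partner of annexin A2, was 39.9, a listed 0 and 0.0238 FPKM in DAUDI and 37.3, 38.9 and 60.2 FPKM in DOHH2. MYO1G, a myosin gene of lymphocytes, was 68.1, 12.01 and 14.4 FPKM in DAUDI and 65.4, 65.2 and 94.4 FPKM in DOHH2. ICAM3 and S100A10 stayed under 0.2 FPKM in resistant DAUDI and above 29 FPKM in the other 4 libraries. The integrin alpha genes ITGA4 and ITGA3 were lower too. ITGA4 was 29.8, 12.1 and 10.9 FPKM in DAUDI and 20.1, 16.7 and 18.6 FPKM in DOHH2. ITGA3 was 2.43, 0.105 and 0.121 FPKM in DAUDI and 3.095, 2.93 and 3.2004 FPKM in DOHH2. By contrast, the beta chain ITGB7, which pairs with ITGA4 in gut homing, was 7.95, 29.6 and 38.1 FPKM in DAUDI and 11.02, 1.71 and 1.83 FPKM in DOHH2. RHOH, a GTPase gene of blood cells, was 10.99, 60.5 and 45.2 FPKM in DAUDI and 14.2, 15.4 and 14.5 FPKM in DOHH2.

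Ranked by the smaller of their DAUDI differences, the leading higher members of 300 nt or more were TEX19, SLPI and TSC22D3. TEX19, a gene of germ cells and placenta, was 0.211, 111 and 95.04 FPKM in DAUDI and 0.0665, 0.1504 and 0.138 FPKM in DOHH2, a difference of 6.53 and 6.31. SLPI, a secreted protease inhibitor gene, was 0.156, 54.6 and 216 FPKM in DAUDI and listed at 0 in all 3 DOHH2 libraries. TSC22D3, the glucocorticoid-induced leucine zipper gene, was 3.08, 128 and 116 FPKM in DAUDI and 3.48, 3.196 and 2.33 FPKM in DOHH2. Of the 3, TEX19 and TSC22D3 differed little between the drugs, whereas SLPI was higher with ibrutinib resistance. The DNA repair gene MGMT was a listed 0, 16.2 and 18.3 FPKM in DAUDI and listed at 0 in all 3 DOHH2 libraries. LARGE, a glycosyltransferase gene, was 0.0352, 20.4 and 24.7 FPKM in DAUDI and listed at 0 in all 3 DOHH2 libraries. SEPP1, which encodes selenoprotein P, was a listed 0, 20.1 and 30.4 FPKM in DAUDI and listed at 0 in all 3 DOHH2 libraries. MGMT, LARGE and SEPP1 were listed at 0 in every DOHH2 library. RIMS3, a gene of presynaptic release sites, was 3.36, 74.8 and 94.2 FPKM in DAUDI and 4.47, 1.16 and 1.05 FPKM in DOHH2. SUSD3 was 4.23, 91.1 and 92.9 FPKM in DAUDI and 5.65, 2.59 and 6.94 FPKM in DOHH2. Transporter genes ABCB4 and ABCG1, for phospholipid and cholesterol, were both higher. ABCB4 was 1.89, 33.4 and 44.95 FPKM in DAUDI and 1.84, 0.121 and 0.102 FPKM in DOHH2. ABCG1 was 0.0511, 10.1 and 18.03 FPKM in DAUDI and 0.0105, 0.0294 and 0.0102 FPKM in DOHH2.

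Receptor tyrosine kinase genes had 3 DAUDI-only higher genes of 17 measured (17.6%) and 0 lower, while in both DAUDI comparisons 6 were higher and 4 lower. EGFR, the receptor for epidermal growth factor, was 0.0204, 9.93 and 16.4 FPKM in DAUDI and a listed 0, 0.0157 and 0.0109 FPKM in DOHH2. CSF1R, the receptor for a macrophage growth factor, was 0.0219, 5.73 and 2.197 FPKM in DAUDI and 0.01496, a listed 0 and a listed 0 FPKM in DOHH2. MST1R was 0.131, 1.78 and 2.36 FPKM in DAUDI and 0.105, 0.0257 and a listed 0 FPKM in DOHH2. None of the 3 reached 0.2 FPKM outside resistant DAUDI. The myeloid marker LYZ, a lysozyme gene, shared that pattern, 0.0884, 15.003 and 13.003 FPKM in DAUDI and 0.199, 0.111 and 0.0459 FPKM in DOHH2. CSF1R, LYZ and ITGAM were the 3 of 10 measured myeloid markers that were DAUDI-only higher, and 0 were DAUDI-only lower. The myeloid list went in both directions, with 4 of the 10 higher and 2 lower in both DAUDI comparisons, whatever DOHH2 did.

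Further members of the fixed lists were of mixed function. Memory and activated B cell genes held 2 higher and 2 lower members of 23 measured (8.70% each). Cyclic AMP and calcium genes held 3 and 2 of 39 (7.69% and 5.13%), against 3.79% and 2.16% of all genes. In both DAUDI comparisons, 3 and 9 genes of these lists were higher and 13 and 10 lower. PINK1, a mitophagy kinase gene and FOXO target, was 3.56, 13.6 and 22.02 FPKM in DAUDI and 3.85, 0.385 and 1.03 FPKM in DOHH2. STIM1, the calcium sensor of the endoplasmic reticulum, was 7.51, 17.4 and 26.5 FPKM in DAUDI and 6.81, 9.85 and 9.07 FPKM in DOHH2. CYP2R1, a vitamin D hydroxylase gene, was 3.71, 14.5 and 25.2 FPKM in DAUDI and 5.15, 7.05 and 7.05 FPKM in DOHH2. All 3 were highest in the ibrutinib-resistant DAUDI library. The DNA methyltransferase gene DNMT3B was 0.641, 3.54 and 4.26 FPKM in DAUDI and 0.565, 1.14 and 0.757 FPKM in DOHH2. The noncoding RNA NEAT1, which builds paraspeckles, was 47.3, 174 and 158 FPKM in DAUDI and 70.6, 37.3 and 35.8 FPKM in DOHH2. APOBEC3B, a deaminase gene with close paralogs, was 0.394, 11.5 and 12.5 FPKM in DAUDI and 0.393, 0.829 and 0.602 FPKM in DOHH2. NEAT1 and APOBEC3B were highest in resistant DAUDI with little difference between the drugs. Lower were BMPR2, a receptor of bone morphogenetic proteins, 6.77, 2.49 and 2.696 FPKM in DAUDI and 6.22, 10.8 and 10.9 FPKM in DOHH2, and the AP-1 gene JUNB, 15.6, 4.11 and 5.09 FPKM in DAUDI and 10.001, 25.6 and 9.902 FPKM in DOHH2. CD99 was 85.3, 21.3 and 28.1 FPKM in DAUDI and 51.5, 37.3 and 36.1 FPKM in DOHH2.

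Of 247 lower members of 300 nt or more, 91 were under 0.5 FPKM in both resistant DAUDI libraries. Of these, 81 were at 1 FPKM or more in all 4 others. The share over all genes was not counted. The rule and the near equality of the libraries labelled WT favour such a pattern, so nothing is read from these counts. PLEKHO1 was 28.6, 0.365 and 0.3798 FPKM in DAUDI and 32.8, 35.95 and 32.6 FPKM in DOHH2. CD1C, which presents lipids to T cells, was 11.3, 0.0112 and 0.0164 FPKM in DAUDI and 9.2003, 6.35 and 7.66 FPKM in DOHH2. The actin-binding gene DBN1 was 27.3, 0.313 and 0.529 FPKM in DAUDI and 24.3, 23.8 and 21.9 FPKM in DOHH2. LRP6, a Wnt co-receptor gene, was 4.399, a listed 0 and a listed 0 FPKM in DAUDI and 3.86, 4.73 and 3.74 FPKM in DOHH2. Its paralog LRP5 was 2.21, a listed 0 and 0.0237 FPKM in DAUDI and 2.97, 3.23 and 2.97 FPKM in DOHH2. LRP5 and LRP6 were the lower members of the Wnt and Notch list together with LEF1, 3 of 25 measured genes, and WNT5A, WNT5B and MAML2 were higher. WNT5A, a Wnt ligand gene, was 0.0462, 1.88 and 4.28 FPKM in DAUDI and 0.252, a listed 0 and a listed 0 FPKM in DOHH2. FADS1, a fatty acid desaturase gene, was 11.2, 0.0189 and 0.0231 FPKM in DAUDI and 12.98, 27.8 and 26.7 FPKM in DOHH2. The aldose reductase gene AKR1B1 was 15.9, a listed 0 and 0.0167 FPKM in DAUDI and 11.5, 55.9 and 52.05 FPKM in DOHH2. CTPS2, which makes cytidine triphosphate, was 9.81, 0.0218 and a listed 0 FPKM in DAUDI and 8.91, 36.4 and 32.3 FPKM in DOHH2. For the last 3 genes the resistant DOHH2 libraries were the highest of all. DDX3X, an RNA helicase gene on the X chromosome, was lower without being silent, 52.2, 6.62 and 5.33 FPKM in DAUDI and 55.1, 41.9 and 44.8 FPKM in DOHH2.

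The mirror group among higher genes is given under the same limits. Of 461 higher members of 300 nt or more, 193 were under 0.5 FPKM in all 4 libraries other than resistant DAUDI, and 53 of these were at 5 FPKM or more in both resistant DAUDI libraries. Small features under 300 nt, whose FPKM are unreliable after polyA selection, made up 6 of the higher and 20 of the lower members, and none is named.

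**Figure D4:**
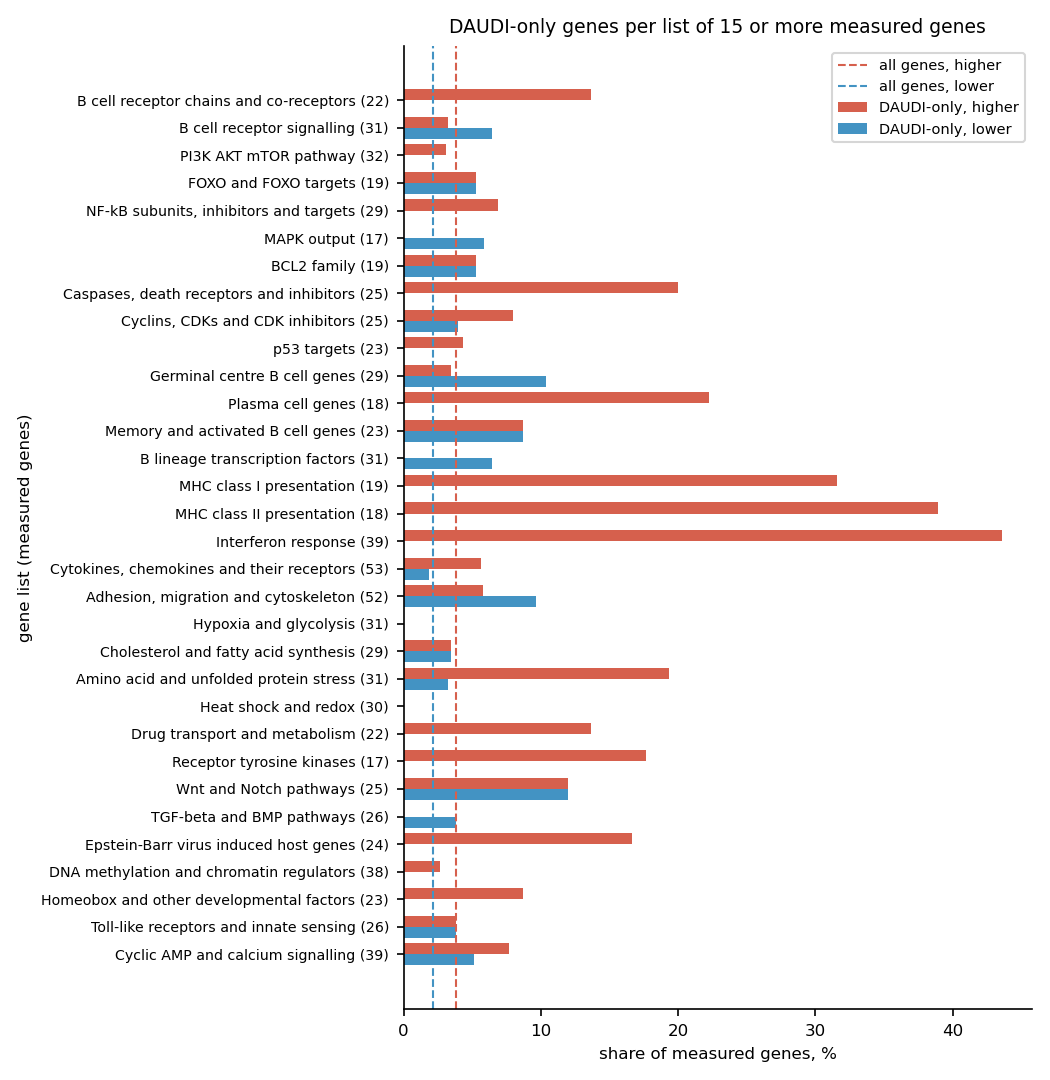
Share of the measured genes of each list, for lists of 15 or more, that were DAUDI-only higher (red bars) or lower (blue bars). Dashed lines give the shares over all genes, 3.79% and 2.16%, and the longest bars are interferon response (43.6%), MHC class II (38.9%) and MHC class I (31.6%).

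Some lists that separate resistant from WT-labelled libraries held no DAUDI-only gene. Of 31 measured hypoxia and glycolysis genes and 30 heat shock and redox genes, 0 were DAUDI-only in either direction. Over all genes 3.79% were DAUDI-only higher and 2.16% lower. In lists this small a count of 0 is near these shares, so nothing is read from it. In the hypoxia and heat shock lists 1 and 2 genes were higher and 14 and 11 lower in both DAUDI comparisons. None of them met the condition on DOHH2. The lists were chosen with earlier results of these data known, and their counts are descriptions.

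Both drugs gave similar values for most members. This is partly fixed by the rule, which required a difference of 1 or more in the same direction with each drug. The resistant DAUDI libraries differed by 1 or more in 48 of the 734 genes (39 higher and 9 lower members), a larger share than the 3.50% of all genes. Among the higher members, 33 were higher and 6 lower with ibrutinib than with idelalisib resistance. These are 7.07% and 1.28%, beside 2.20% and 1.31% of all genes. Among the lower members, 1 was higher and 8 were lower. The median difference between these libraries was 0.24 for the higher members and 0.03 for the lower, and 0.14 over all genes. The ibrutinib-resistant DAUDI library had 1.42 times the coverage per FPKM of the library labelled WT, against 1.04 for the idelalisib-resistant one, and the part of this depth in the difference was not tested.

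The genes furthest apart between the drugs were of several kinds. TUSC3, which takes part in N-glycosylation, was at 0.0383, 2.02 and 16.2 FPKM in DAUDI. SQRDL, a sulfide oxidising enzyme gene, was 2.34, 7.26 and 42.7 FPKM in DAUDI and 14.4, 1.64 and 0.634 FPKM in DOHH2. Against the DOHH2 library labelled WT its smaller DAUDI difference was -0.90, so its direction rests on the library labelled DAUDI WT. P2RX7, an ATP-gated channel gene, was 0.542, 2.96 and 13.2 FPKM in DAUDI and 0.448, 0.067002 and 0.0272 FPKM in DOHH2. All 3 stood highest in the ibrutinib-resistant DAUDI library, as did the stem cell antigen gene PROM1, a listed 0, 1.73 and 6.17 FPKM in DAUDI and listed at 0 in all 3 DOHH2 libraries. IFI6, a mitochondrial interferon gene, was 1.88, 8.41 and 33.9 FPKM in DAUDI and 2.31, 0.3399 and 0.986 FPKM in DOHH2. ADAM23 was lower with ibrutinib resistance, 0.151, 11.4 and 1.63 FPKM in DAUDI and 0.0608, 0.0094 and 0.0244 FPKM in DOHH2. The prolactin gene PRL was a listed 0, 10.7 and 1.77 FPKM in DAUDI and listed at 0 in all 3 DOHH2 libraries. Among lower members, the p53 relative TP63 was 21.2, 5.55 and 0.806 FPKM in DAUDI and 12.6, 27.1 and 20.4 FPKM in DOHH2. PLP2 was 66.1, 4.63 and 1.54 FPKM in DAUDI and 70.6, 65.2 and 73.9 FPKM in DOHH2. NME4, a mitochondrial nucleoside diphosphate kinase gene, was 40.1, 9.8003 and 2.403 FPKM in DAUDI and 39.5, 58.1 and 58.6 FPKM in DOHH2. TP63, PLP2 and NME4 were lowest with ibrutinib resistance. QPRT, of NAD synthesis, was the only lower member that was higher with ibrutinib resistance by 1 or more, 21.8, 3.12 and 7.43 FPKM in DAUDI and 22.5, 19.9 and 22.8 FPKM in DOHH2.

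**Figure D5:**
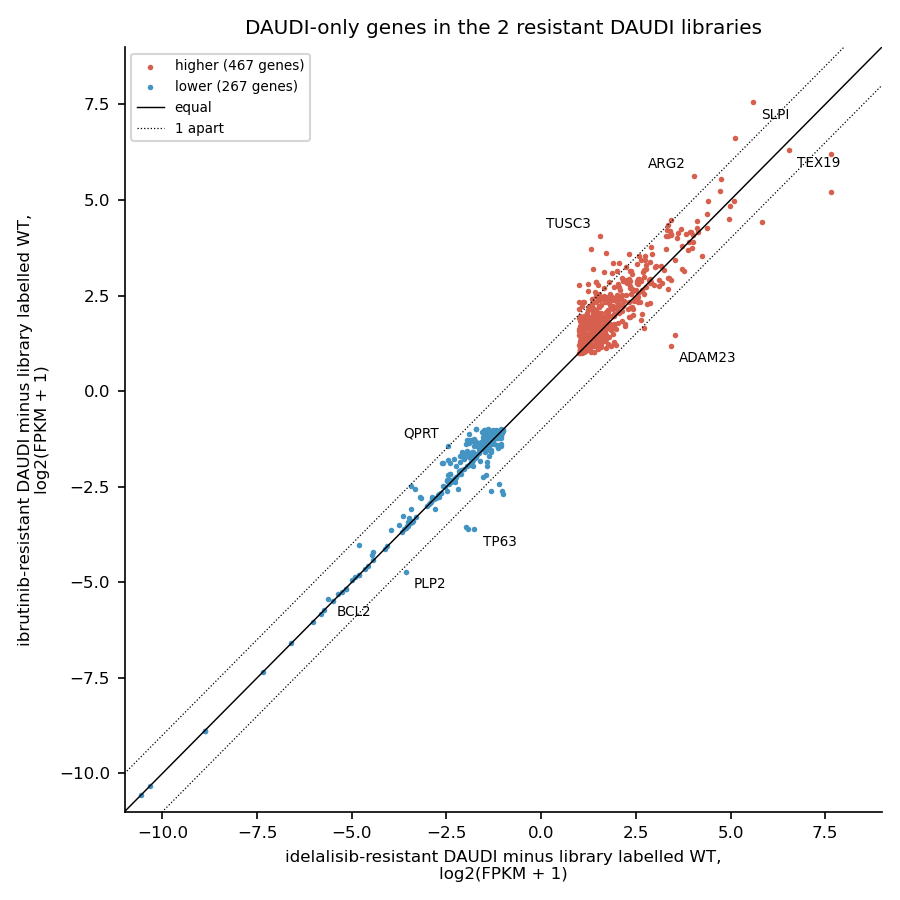
Each point is a DAUDI-only gene, with its difference from the DAUDI library labelled WT in the idelalisib-resistant (horizontal) and ibrutinib-resistant (vertical) library, as log2(FPKM + 1). The solid line marks equal differences and dotted lines mark a gap of 1, beyond which 48 of the 734 genes lie, for example TUSC3 above and ADAM23 below.

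The lists differed in how the drugs compared. In 38 of 39 interferon genes the ibrutinib-resistant library was above the idelalisib-resistant one, with a median difference of 0.66, beside 8639 of 12337 genes (70.0%) and a median of 0.14 overall. In the stress list this held for 29 of 31 genes, with a median of 0.58. In the plasma cell list it held for 17 of 18, with a median of 0.47. MHC class I genes gave 17 of 19 and 0.39, and MHC class II genes 12 of 18 and 0.12. When the libraries were rescaled by the median of ratios, the overall median was 0.02, while the interferon median was 0.50 and the stress median 0.42. The class II median turned negative there, at -0.04.

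Opposite differences in DOHH2 were a minority of the members. In 333 of the 467 higher genes both DOHH2 differences were under 0.5, and in 114 both were opposite by 0.5 or more (24.4%). For the 267 lower genes the numbers were 176 and 67 (25.1%). Both were opposite by 1 or more in 77 higher (16.5%) and 35 lower genes (13.1%). Over all genes, 14.6% were lower and 13.4% higher by 1 or more in both DOHH2 comparisons. The shares of the members are near these, so nothing is read from them. For the limit of 0.5 the share over all genes was not counted. Among the members opposite by 1 or more, APOBEC3C, a cytidine deaminase gene with close paralogs, was 16.7, 50.2 and 58.8 FPKM in DAUDI and 17.3, 0.03296 and 0.0844 FPKM in DOHH2. PLAC8 was 5.41, 32.7 and 39.7 FPKM in DAUDI and 33.1, a listed 0 and a listed 0 FPKM in DOHH2. TRAF5, an adaptor of TNF receptors, was 6.87, 24.4 and 18.5 FPKM in DAUDI and 5.77, 0.0904 and 0.172 FPKM in DOHH2. In the other direction, ABI2, of the WAVE actin complex, was 2.61, 0.0168 and 0.0066 FPKM in DAUDI and 2.51, 33.3 and 32.8 FPKM in DOHH2. The sialophorin gene SPN was 6.64, 1.19 and 1.38 FPKM in DAUDI and 3.45, 26.8 and 26.5 FPKM in DOHH2. DANCR, a long noncoding RNA gene, was 59.8, 20.1 and 11.9 FPKM in DAUDI and 56.3, 221 and 178 FPKM in DOHH2. In each of these genes the libraries labelled WT lay between the 2 resistant lines, except for PLAC8, where the DOHH2 library labelled WT reached the level of the resistant DAUDI libraries and the smaller DAUDI difference from it was -0.015.

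Set against each other, the resistant libraries of both lines differed by 1 or more with both drugs in 403 of the 467 higher members (86.3%) and in 186 of the 267 lower ones (69.7%). Over all genes these shares were 7.99% and 6.17%. This comparison is partly fixed by the rule and by the near equality of the libraries labelled WT. Those libraries differed from each other by 1 or more in 7 higher and 26 lower members, against 1.09% of all genes (0.608% higher and 0.486% lower in DOHH2), and 20 of the lower members so marked were small features. Leaving small features out, the counts were 4 and 6.

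By position, DAUDI-only genes were spread over the genome. Higher members of 300 nt or more were 7.37% of the measured genes of chromosome 4 and 6.82% of those of chromosome 22, against 3.78% over all chromosomes. Lower members were 4.75% of chromosome 15 and 4.14% of the X chromosome, against 2.03%. The Y chromosome was not counted by itself, although the shares over all chromosomes include its genes, some of them lower members. Each of chromosomes 1 to 22 and X held members of both directions. In 9 places 3 measured genes in a row were members, all of them higher. These runs included IFIT2, IFIT3 and IFIT1, then CMPK2, RSAD2 and RNF144A on chromosome 2, LTB, LST1 and NCR3 on chromosome 6, and MTAP, CDKN2A and FLJ35282 on chromosome 9. TAPSAR1, TAP1 and PSMB9 on chromosome 6 formed another run, but TAPSAR1 overlaps TAP1 and their reads may be hard to assign.

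Isoform use was largely the same. Of 99 members with several isoforms and 5 FPKM or more in the libraries compared, 6 had an isoform whose share of the gene's FPKM differed by 30 percentage points or more in both DAUDI comparisons (6.06%), against 126 of 3060 genes (4.12%). In SLC39A9, a zinc transporter gene, 1 isoform made up 91.2%, 24.2% and 21.2% in DAUDI. With only that gene's leading isoform counted, its smaller DAUDI difference turned from 1.56 to -0.30. In KCNAB2, a potassium channel subunit gene, 1 isoform made up 29.1%, 77.3% and 77.7%. For FKBP11 the share of its main isoform was 47.6%, 86.8% and 85.8% in DAUDI, and 50.5%, 82.8% and 75.9% in DOHH2. The other 3 genes were NT5C3A, ENO3 and ZBTB48.

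The threshold cuts through a continuous range. Among genes at 5 FPKM or more in a DAUDI library, the higher members just inside were IARS, ATP5G3, UBE2L6, KCTD6 and SEC61A1, with smaller differences of 1.0003 to 1.01, and just outside lay NT5DC1, CD79A, GMPPB, TSPAN14 and RAB9A, from 0.992 to 0.997. Among the lower members at that level, HIST1H2BL, ALCAM, CDKN1B and CTDSPL2 lay just inside, from -1.0003 to -1.01, and PPIL3, NOC3L, THAP4, VPS13B and ZNF142 just outside, from -0.994 to -0.999.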

How the data were processed

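PolyA RNA of 6 cell line cultures was sequenced with a directional kit, per the labels' protocols. Per the submitters' processing notes the authors used bcl2fastq, cutadapt, TopHat2 and Cufflinks with hg19. The sources used here give neither versions nor whether strand was used in quantification, so overlapping and antisense genes may share reads. The deposited tables list 43490 isoforms with FPKM scaled by the authors, a coverage signal per the file headers, and the deposited isoform length in nucleotides. Counts were not used here, so absolute depth is unknown. Coverage per FPKM relative to the DAUDI library labelled WT was 1.04 and 1.42 in resistant DAUDI and 0.980, 0.975 and 0.936 in DOHH2. Between 10279 and 10687 genes per library reached 1 FPKM.

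FPKM were summed by gene name over isoforms (23844 genes) with pandas 2.3.3 under Python 3.11.15. Left out were 528 isoforms without a gene name and 10 genes with a failed estimate. Genes at 1 FPKM or more in at least 1 library (12337) were compared as log2(FPKM + 1), and a difference of 1 or more was counted. No test was run, since each group has 1 library and libraries resistant to different drugs are not replicates. The member rule was run on simulated data with large planted changes, little noise and no levels near 0. That run checks the code and says nothing about members near the threshold or near 0. No difference is printed for a gene listed at 0 in the DAUDI libraries compared.

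The members and the 41 gene lists (1126 genes, 855 measured, 114 of them members) were chosen with earlier results of these data known. Lists without counts in the text held 3 members or fewer. Under the rule for names, the text may name the 40 members at 5 FPKM or more with the largest smaller DAUDI difference in each direction and every member in a list. It may also name the 15 furthest apart between the drugs, the 15 most opposite in DOHH2, the 5 on each side of the threshold, members in runs, the 10 with the largest isoform shift, and the drug targets. Some were left out of the text, and B2M, KLHL9 and GZMB are named outside it.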

Additional observations from a re-analysis of the deposited data

Results flagged for a closer look

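Of the named genes, 27 differed by 1 or more in one direction in both DAUDI comparisons and by 1 or more in the other direction in both DOHH2 comparisons, with no library listed at 0. The member rule and the rule for names favour such genes. The difference between the lines was not tested, as there is 1 library per group. The values are the mean DAUDI difference minus the mean DOHH2 difference in log2 units. Interferon and antigen presentation genes were ISG15 (6.11), PSMB9 (5.70), OAS2 (5.27), HLA-DQA1 (5.18), HLA-F (4.96), TAP1 (3.04), HLA-C (2.996) and HLA-DPB1 (2.72). Caspase and NF-kB genes were CASP4 (4.86), CASP1 (4.20), TRAF5 (4.08) and BIRC3 (3.47). B cell and cytokine genes were LTB (7.17), IL4R (5.40), BANK1 (4.93) and ITGB7 (4.07). The remaining genes that were higher in resistant DAUDI were APOBEC3C (5.76), RIMS3 (5.66), SQRDL (5.40), ABCB4 (5.14), PINK1 (3.54) and MAML2 (3.01). Genes lower in resistant DAUDI and higher in resistant DOHH2 were ABI2 (-5.11), PHGDH (-5.09), SPN (-4.38), LEF1 (-3.76) and DANCR (-3.68).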

How the results depend on the processing

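The 19 alternatives were run on the counts of 467 higher and 267 lower members, of the 48 apart between the resistant DAUDI libraries, of the 33 apart between the libraries labelled WT and of the 589 apart between the resistant lines. The count between the resistant DAUDI libraries cannot be had without either of them, which leaves 17 alternatives for it. Counts moved by more than 1.5 times as follows, and the cause was not tested beyond the construction of each setting. With a pseudocount of 0.1, 147 members differed between the drugs and 71 between the libraries labelled WT. With a pseudocount of 5 there were 212 higher and 128 lower members, 11 apart between the drugs and 247 apart between the lines. Requiring 2 log2 units in DAUDI gave 138, 86, 12 and 205. Allowing under 1 in DOHH2 gave 710 higher and 469 lower members. Holding all 3 DOHH2 libraries within 0.5 left 172 lower members, 30 apart between the drugs, 19 between the libraries labelled WT and 369 between the lines. Between the libraries labelled WT, 4 members differed with the DOHH2 one as reference, 7 with the mean of both as reference, and 10 without features under 300 nt. Leaving out 1 resistant library at a time removed a condition of the rule, and gave 489 to 846 higher members, 303 to 378 lower, 51 to 52 apart between the drugs, 35 to 51 between the libraries labelled WT and 656 to 972 between the lines. The highest of these, except for the lower members and the drugs, came without the idelalisib-resistant DAUDI library.

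Of 151 named members, all kept their direction except 4. Against the DOHH2 library labelled WT the smaller DAUDI difference was -0.90 for SQRDL, -0.015 for PLAC8 and 0.11 for HIST1H2BL, and with only the leading isoform that of SLC39A9 was -0.30. With median of ratios scaling 133 of the 151 met the rule, and with upper quartile scaling 142. Fewer met it under stricter rules, namely 99 with a pseudocount of 5, 84 with all 3 DOHH2 libraries within 0.5 and 67 with at least 2 log2 units in DAUDI. Median of ratios scaling moved the median ibrutinib difference over all genes from 0.18 to -0.004. It gave 17 interferon, 6 MHC class I, 7 MHC class II and 4 stress genes as DAUDI-only higher. Over all alternatives the count of DAUDI-only higher genes ran from 9 to 20 for interferon, 1 to 13 for MHC class I, 2 to 8 for MHC class II, 1 to 7 for stress and 2 to 5 for plasma cell genes, counts added after seeing the data. No paired analysis was possible because each group has 1 library and the labels give no replicate numbers. Without counts, depth cannot bound a listed 0.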
